A study of Mus musculus with 8 samples.

Results

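The 38 genes described here are the granulocyte and monocyte genes of mouse marrow, chosen by name and matched from their Ensembl identifiers to symbols, out of 45706 genes in the RNA files. They were followed in LSK cells (Lin-Sca1+cKit+, which take in stem cells and multipotent progenitors) sorted from bone marrow of C57BL/6 mice. One group of mice was WT (wild type) and the other had a conditional KO (knockout) of Hira, the gene of a chaperone that loads histone H3.3 onto DNA outside replication. There were 2 libraries per label in RNA-seq and 2 per label in ATAC-seq, where a transposase cuts and tags open chromatin. The age of the mice, the Cre driver, any treatment and whether animals were pooled are not given in the sources used here. The labels also do not say that the libraries came from separate mice. The p-values measure the spread between these libraries, which may be technical in the labelled Hira KO pair. The labelled WT RNA libraries differed in sex-linked genes, as given below, so they did not come from the same single mouse.

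Neutrophils and monocytes store their weapons in granules that are made in order during maturation. Primary (azurophil) granules fill first, at the promyelocyte stage, with myeloperoxidase and serine proteases. Secondary and gelatinase granules follow with lactoferrin, lipocalin and metalloproteases, and the cytosol of late neutrophils fills with S100 proteins. Monocytes turn on Ly6C and chemokine receptors, and they share lysozyme with neutrophils. Receptors for growth factors and antibodies and the NADPH oxidase, which makes superoxide, are used by both lineages. The 38 genes were split by these roles into 5 primary granule genes, 15 secondary granule and late neutrophil genes, 10 monocyte genes and 8 receptor and oxidase genes.

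The RNA libraries held 16.6 to 19.8 M counts, of which 40.8 to 53.1% came from mitochondrially encoded genes. In the labelled WT libraries Hira had 16.5 and 17.2 CPM (counts scaled to one library size), below the 24.4 and 23.3 CPM of the labelled Hira KO libraries (log2 fold change 0.50, edgeR adjusted p = 0.180). This direction goes against the titles, and the deposited files are named with the opposite genotype, so groups are called by their labels and every direction below depends on them. A whole-gene count can keep reads from exons outside a deletion and checks the labels only in part. Labelled WT 2 was male-like and the other 3 RNA libraries female-like in Xist and Ddx3y. The labelled WT pair thus differed in sex, unlike the labelled Hira KO pair, and the part of sex was not tested. Labelled Hira KO 2 held 6 counts of AY036118 against 86174 to 108841 in the others. The gate's own genes Kit and Ly6a were present in all 4 libraries, at 274 to 351 CPM and 8.86 to 33.6 CPM. Values per library are given below in the order labelled WT 1, labelled WT 2, labelled Hira KO 1 and labelled Hira KO 2.

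The promoters of the most abundant primary granule genes are shown first, as a reference for the promoter peaks described below. Each line gives the 250 bases before the RefSeq transcription start on the strand of the gene (RefSeq, GRCm38.p6). Capitals mark matches, on either strand, to GAGGAA (the core of PU.1 sites), TTNNGNAA (C/EBP) and TGNGGT (the core of RUNX sites), which do not overlap in these lines. PU.1, C/EBP and RUNX proteins are the transcription factors best known for switching on myeloid genes. Lcn2, Ly6c2 and Csf3r are added as called genes of the other roles.
Mpo: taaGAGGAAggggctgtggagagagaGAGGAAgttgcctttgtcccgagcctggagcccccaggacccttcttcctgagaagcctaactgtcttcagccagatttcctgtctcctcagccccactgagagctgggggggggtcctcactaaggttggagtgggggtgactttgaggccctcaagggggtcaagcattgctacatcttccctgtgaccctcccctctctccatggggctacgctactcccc
Elane: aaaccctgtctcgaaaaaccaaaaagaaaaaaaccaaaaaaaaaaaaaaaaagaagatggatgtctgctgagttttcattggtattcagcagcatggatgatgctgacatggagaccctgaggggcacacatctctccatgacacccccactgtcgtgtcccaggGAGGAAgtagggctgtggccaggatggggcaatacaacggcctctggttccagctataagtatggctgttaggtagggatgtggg
Prtn3: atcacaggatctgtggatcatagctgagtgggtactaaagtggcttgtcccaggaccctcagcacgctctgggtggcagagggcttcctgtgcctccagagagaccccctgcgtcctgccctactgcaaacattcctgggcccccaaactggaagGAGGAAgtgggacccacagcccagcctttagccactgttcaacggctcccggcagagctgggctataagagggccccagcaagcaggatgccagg
Ctsg: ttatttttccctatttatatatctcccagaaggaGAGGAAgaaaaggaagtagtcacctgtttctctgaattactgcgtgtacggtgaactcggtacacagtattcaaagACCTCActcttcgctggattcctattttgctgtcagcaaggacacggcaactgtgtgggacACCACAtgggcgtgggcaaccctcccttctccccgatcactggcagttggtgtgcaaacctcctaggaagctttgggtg
Lcn2: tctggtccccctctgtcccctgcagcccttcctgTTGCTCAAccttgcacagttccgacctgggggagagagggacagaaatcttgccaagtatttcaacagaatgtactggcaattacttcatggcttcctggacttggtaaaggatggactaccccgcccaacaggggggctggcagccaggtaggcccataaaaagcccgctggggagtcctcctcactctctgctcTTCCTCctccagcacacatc
Ly6c2: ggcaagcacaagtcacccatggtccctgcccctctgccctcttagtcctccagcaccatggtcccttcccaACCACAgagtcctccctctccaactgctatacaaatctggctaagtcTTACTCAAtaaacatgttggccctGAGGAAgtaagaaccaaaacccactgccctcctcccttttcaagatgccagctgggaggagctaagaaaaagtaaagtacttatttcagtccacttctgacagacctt
Csf3r: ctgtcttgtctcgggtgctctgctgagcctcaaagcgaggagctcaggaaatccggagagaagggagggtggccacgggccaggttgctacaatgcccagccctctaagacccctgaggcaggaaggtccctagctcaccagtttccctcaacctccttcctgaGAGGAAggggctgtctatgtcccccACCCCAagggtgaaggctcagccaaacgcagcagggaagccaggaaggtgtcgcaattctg

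These windows lie at chr11:87793534-87793783 (Mpo), chr10:79886062-79886311 (Elane) and chr10:79879417-79879666 (Prtn3) on the plus strand and at chr14:56102575-56102824 (Ctsg) on the minus strand. The Lcn2 window is chr2:32387740-32387989 and that of Ly6c2 chr15:75111972-75112221, both on the minus strand, and that of Csf3r is chr4:126024409-126024658 on the plus strand. Ly6c2 has a second RefSeq start nearby, whose window is not printed. In Elane and Prtn3, neighbours whose gene bodies are 3.14 kb apart, GAGGAA begins 85 and 95 bases before the start. In Csf3r it begins 86 bases before the start, and in Mpo it stands at 247 and 224 bases. Of the 38 genes 33 had a promoter entry in the RefSeq table, and Hp, Csf1r, Mmp9, Ncf4 and Cd14 had none. GAGGAA was in the 250 bases of 18 of the 33 (54.6%), against 25.9% of 27025 genes with an entry. It was in 4 of 5 primary granule, 7 of 13 secondary granule and late neutrophil, 4 of 8 monocyte and 3 of 7 receptor and oxidase promoters. TTNNGNAA was in 22 of 33 (66.7% against 40.3% of all), and here the roles differed in count, with 1 of 5 primary granule promoters (that of Ms4a3) against 12 of 13 secondary granule and late neutrophil and 7 of 8 monocyte promoters. TGNGGT was in 19 of 33 (57.6% against 43.3%), including 7 of 8 monocyte promoters. A match describes the letters in the window and shows no binding.

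The first comparison asked how RNA of these genes differed between labelled Hira KO and labelled WT LSK cells. Lcn2, Ly6c2, Ifi30 and Fcgr2b fell in labelled Hira KO and Csf3r rose (edgeR's quasi-likelihood test, adjusted p below 0.05 over all 16258 genes tested). The other 32 genes tested were not called, and Cd14 was too low to test. Of the 37 tested, 31 had a log2 fold change below 0 and 6 above, with a median of -0.93 against 0.01 over all tested genes. In all tested genes 1.32% were called higher and 0.48% lower, so the 4 genes called lower among 37 are to be read against 0.48% and the 1 called higher against 1.32%. At an unadjusted p below 0.05, 16 of the 37 were lower and 2 higher, where 10.6% of all tested genes were lower and 12.2% higher. The genes were chosen with earlier results of these data known, so these shares describe the list and test nothing. In bulk RNA, fewer cells of a type and less RNA per cell cannot be told apart.

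**Figure D1:**
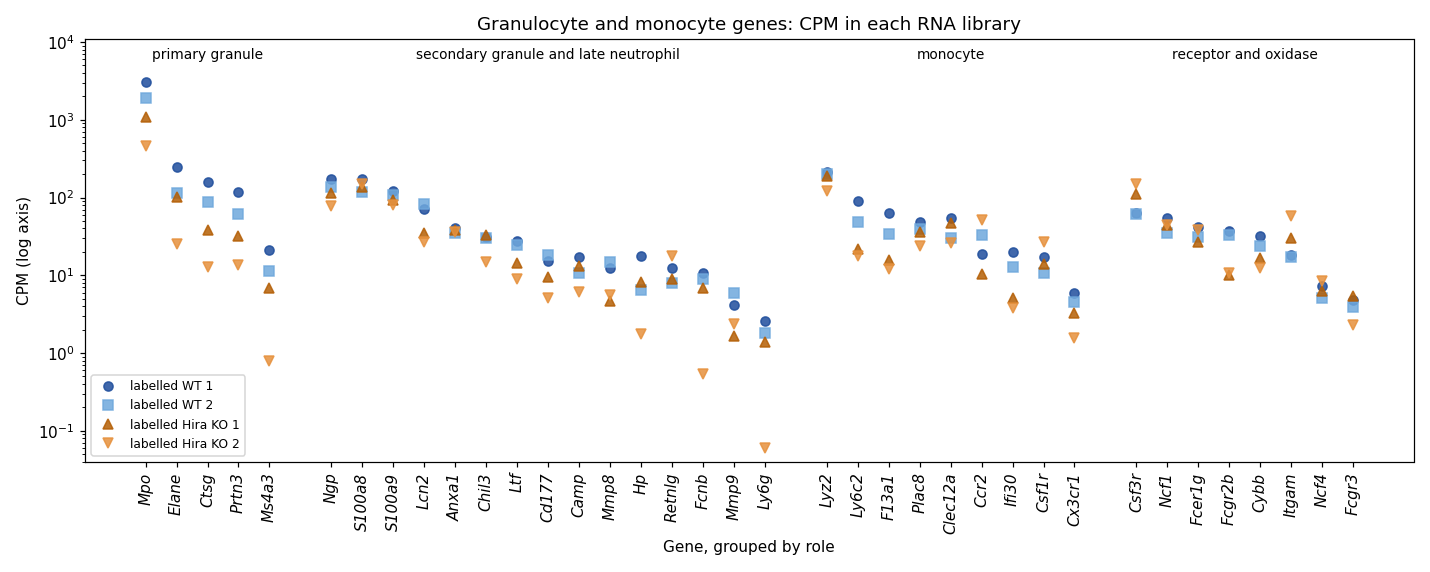
CPM (log axis) of each of the 37 tested genes in each RNA library, grouped by role and ordered by mean CPM; blue symbols are labelled WT and orange symbols labelled Hira KO. All 5 primary granule genes run from labelled WT 1 at the top to labelled Hira KO 2 at the bottom, while Csf3r and Itgam have both orange symbols on top.

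Primary granule genes had the lowest median of the roles, a log2 fold change of -1.95 with a range of -2.28 to -1.50 over its 5 genes, and none of them passed edgeR's threshold. Together they summed to 3605, 2210, 1280 and 516 CPM. Mpo, the myeloperoxidase gene and the most abundant of the 38, ranked 28 by TPM (transcript abundance scaled for length) among tested genes in the labelled WT libraries. Its CPM were 3062, 1936, 1101 and 463. The groups did not overlap, and the libraries of the same group differed from each other as well (log2 fold change -1.68, SE 0.47, 95% interval -2.86 to -0.49, edgeR adjusted p = 0.125). Elane, neutrophil elastase, stood at 247, 113, 101 and 25.4 CPM. Libraries of the same label lay far apart, while labelled WT 2 and labelled Hira KO 1 were close (log2 fold change -1.50, SE 0.91, edgeR adjusted p = 0.437). Ctsg, cathepsin G, stood at 160, 87.6, 38.3 and 12.6 CPM and had the lowest log2 fold change of the 38 genes, -2.28 (SE 0.69, edgeR adjusted p = 0.180). Each library was below the one before it in this gene. Prtn3, proteinase 3, ranged from 13.7 to 116 CPM (log2 fold change -1.95) and Ms4a3, a gene used to trace cells that passed through the granulocyte and monocyte progenitor stage, from 0.781 to 21.0 CPM (-2.04).

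In all 5 primary granule genes the groups did not overlap and labelled Hira KO was lower, which held for 27.8% of all tested genes. All 5 also fell in the one order labelled WT 1, labelled WT 2, labelled Hira KO 1, labelled Hira KO 2, as 9.45% of all tested genes did. Libraries of the same label also differed. The median log2 ratio of the 5 genes was -0.89 for labelled WT 2 over labelled WT 1 and -1.59 for labelled Hira KO 2 over labelled Hira KO 1, while the nearest pair across labels, labelled Hira KO 1 over labelled WT 2, gave -0.81. The other 3 pairs across labels gave -1.58, -2.16 and, for labelled Hira KO 2 over labelled WT 1, -3.27. Without labelled Hira KO 2 the median log2 fold change of the role was -1.22, and without labelled Hira KO 1 it was -2.84.

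**Figure D2:**
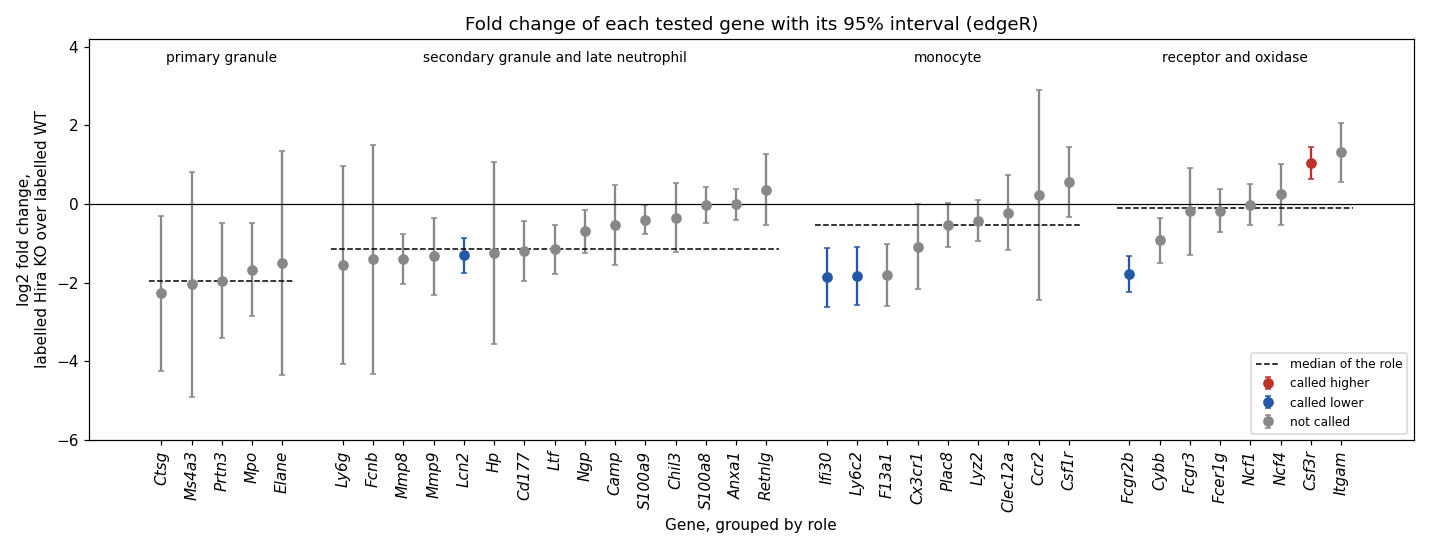
Log2 fold change of each tested gene, labelled Hira KO over labelled WT, with a 95% interval derived from edgeR's F statistic. Dashed lines are the medians of the roles and colours mark called genes. The medians lie at -1.95, -1.16, -0.55 and -0.09 from primary granule to receptor and oxidase genes, and the primary granule intervals are among the widest.

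For secondary granule and late neutrophil genes the median log2 fold change was -1.16 over 15 genes, with a range of -1.56 to 0.36. Of the 15, 1 fell, where 0.48% of all tested genes were called lower. Lcn2, the iron-siderophore binding lipocalin of secondary granules, stood at 72.3, 82.3, 35.4 and 27.1 CPM. Both labelled Hira KO libraries were below both labelled WT libraries, and Lcn2 fell by 1.31 on the log2 scale (SE 0.19, edgeR adjusted p = 0.0337). The other granule proteins with non-overlapping groups were not called by edgeR. The log2 fold change and edgeR adjusted p were -1.41 and 0.0519 for Mmp8, neutrophil collagenase, and -1.16 and 0.0705 for Ltf, lactoferrin. They were -1.20 and 0.0962 for Cd177, a neutrophil surface protein, and -1.33 and 0.125 for Mmp9, gelatinase B. Ngp, neutrophilic granule protein, stood at 175, 138, 116 and 76.8 CPM (log2 fold change -0.70, edgeR adjusted p = 0.136).

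The most abundant gene of this role by TPM, S100a8, one chain of the calprotectin dimer, stood at 172, 119, 137 and 148 CPM. Its groups overlapped, and the 95% interval of its log2 fold change (-0.03) ran from -0.49 to 0.43. S100a9, the other chain, encoded 22.6 kb away, stood at 121, 107, 92.9 and 80.0 CPM, without overlap between the groups (-0.40, interval -0.76 to -0.03, edgeR adjusted p = 0.189). Anxa1, annexin A1, ranged from 35.4 to 40.02 CPM over the 4 libraries (log2 fold change -0.01, interval -0.41 to 0.39). Camp, the cathelicidin gene (-0.53), Chil3, a chitinase-like secreted protein (-0.35), Retnlg, a resistin-like protein (0.36), and Hp, haptoglobin (-1.25), also overlapped between groups.

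Ly6g, which encodes an antigen of mature mouse neutrophils often used to deplete them from sorts, was near the bottom at 2.59, 1.81, 1.40 and 0.0601 CPM. The last value is 1 count, and the interval of its log2 fold change (-1.56) ran from -4.07 to 0.95. Fcnb, ficolin B, showed the same single low library, at 10.8, 8.92, 6.79 and 0.541 CPM (log2 fold change -1.41). Of the 15 genes 9 did not overlap and were lower in labelled Hira KO (27.8% of all tested genes). The full order of libraries was followed by 5 (9.45% of all tested genes). The median of the role was -0.53 without labelled WT 1 and -0.54 without labelled Hira KO 2.

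For monocyte genes the median log2 fold change was -0.55 over 9 tested genes, with a range of -1.87 to 0.55. Of the 9, 2 fell, where 0.48% of all tested genes were called lower. Ly6c2, whose product marks inflammatory monocytes, stood at 90.4, 48.9, 21.6 and 17.5 CPM. All 4 values were in descending order, and Ly6c2 fell by 1.83 on the log2 scale (SE 0.31, edgeR adjusted p = 0.0481). Its near copy Ly6c1 held 0.155 to 0.529 CPM, and reads shared by such copies are split by the authors' estimate. Ifi30, a lysosomal thiol reductase that prepares antigens, stood at 19.8, 12.97, 5.08 and 3.85 CPM and fell by 1.87 (SE 0.32, edgeR adjusted p = 0.0427), also in descending order. F13a1, the coagulation factor XIII subunit of monocytes, ranged from 12.0 to 63.9 CPM and lay just outside the threshold (log2 fold change -1.81, edgeR adjusted p = 0.0534).

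The most abundant monocyte gene by TPM, Lyz2, the lysozyme of macrophages and neutrophils, stood at 216, 202, 191 and 121 CPM. The groups did not overlap, but 3 of the 4 libraries lay within a narrow range (log2 fold change -0.42, SE 0.22, edgeR adjusted p = 0.301). Plac8, a small cysteine-rich protein of myeloid progenitors, stood at 48.6, 39.6, 36.5 and 23.9 CPM (-0.55, edgeR adjusted p = 0.231). Cx3cr1, the fractalkine receptor, ranged from 1.56 to 5.93 CPM (-1.09). Csf1r, the receptor for the monocyte growth factor M-CSF, stood at 16.9, 10.6, 13.8 and 26.6 CPM. Its groups overlapped and its highest value was in labelled Hira KO 2 (log2 fold change 0.55, interval -0.34 to 1.44). Ccr2, the chemokine receptor that lets monocytes leave the marrow, stood at 10.5 CPM in labelled Hira KO 1 and 50.7 CPM in labelled Hira KO 2, on either side of both labelled WT libraries (0.23, interval -2.45 to 2.91). Clec12a, an inhibitory lectin of myeloid cells, overlapped as well (-0.22). Cd14, the lipopolysaccharide co-receptor of mature monocytes, had 0 to 13 counts per library, or at most 0.781 CPM. Of the 10 monocyte genes, 6 of the 9 tested did not overlap, all of them lower in labelled Hira KO (27.8% of all tested genes).

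For receptor and oxidase genes the median log2 fold change was -0.09 over 8 genes, and the role split in both directions, from -1.78 to 1.31. Csf3r, the receptor for the granulocyte growth factor G-CSF, stood at 63.7, 62.0, 111 and 148 CPM. The labelled WT libraries were nearly equal and both labelled Hira KO libraries above them, and Csf3r rose (log2 fold change 1.04, SE 0.18, edgeR adjusted p = 0.0427). Itgam, the integrin CD11b that marks granulocytes and monocytes, stood at 18.3, 17.3, 30.3 and 58.1 CPM. It did not overlap between groups but was not called (1.31, SE 0.31, edgeR adjusted p = 0.0787). These were the only 2 of the 38 genes higher in both labelled Hira KO libraries than in both labelled WT libraries, a pattern held by 28.3% of all tested genes.

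Fcgr2b, the inhibitory receptor for IgG, stood at 37.5, 33.0, 10 and 10.6 CPM. Libraries of the same label were close to each other, and Fcgr2b fell by 1.78 on the log2 scale (SE 0.20, edgeR adjusted p = 0.0190, the lowest of the 38 genes). Its neighbour Fcgr3, an activating IgG receptor encoded 75.1 kb away, ranged from 2.28 to 5.39 CPM with overlap (-0.19, interval -1.29 to 0.92). Fcer1g, the signalling chain shared by Fc receptors, stood at 41.3, 31.0, 26.7 and 37.7 CPM (-0.17, interval -0.72 to 0.39). Cybb, the catalytic subunit of the phagocyte NADPH oxidase, ranged from 12.3 to 31.7 CPM without overlap (-0.93, edgeR adjusted p = 0.0913). Ncf1, the organising subunit p47phox, stood at 53.8, 35.5, 43.8 and 44.5 CPM (-0.02, interval -0.53 to 0.50). Ncf4, the p40phox subunit, ranged from 5.09 to 8.42 CPM (0.24). Oxidase subunits differed in sign, but the intervals of Ncf1 and Ncf4 include 0.

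Set side by side, the roles had medians of -1.95 (primary granule), -1.16 (secondary granule and late neutrophil), -0.55 (monocyte) and -0.09 (receptor and oxidase), and the ranges of any pair of roles overlapped. The differences between roles were not tested. In each of the 4 pairs of one labelled Hira KO with one labelled WT library the primary granule median was the lowest, from -0.81 to -3.27. The secondary granule and monocyte medians changed places. In the pairs with labelled Hira KO 1 the monocyte median was lower (-0.82 and -0.42, against -0.66 and -0.25), and in the pairs with labelled Hira KO 2 the secondary granule median was lower (-1.19 and -1.29, against -1.07 and -0.74). The receptor and oxidase median was below 0 against labelled WT 1 (-0.26 and -0.20) and above 0 against labelled WT 2 (0.31 in both pairs). Leaving out labelled WT 1 moved its fitted median to 0.17, and leaving out labelled Hira KO 1 to 0.01.

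**Figure D3:**
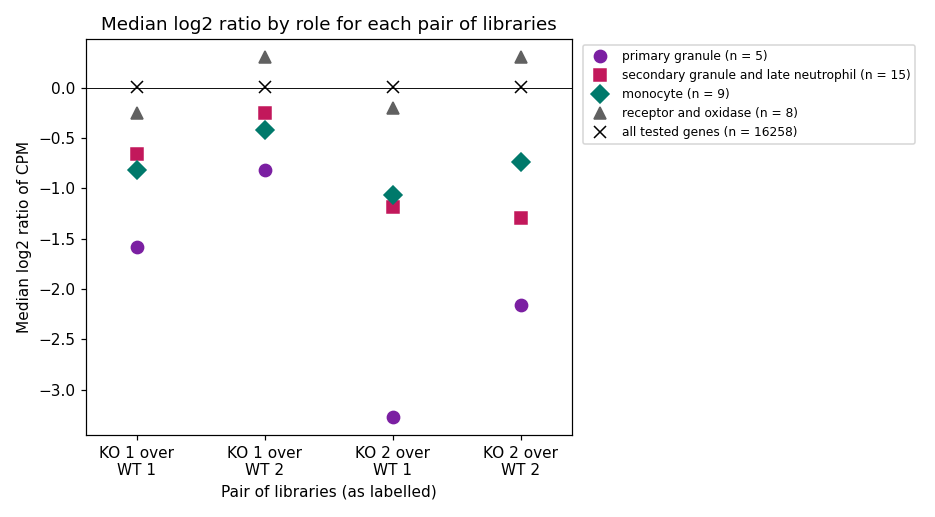
Median log2 ratio of CPM (y axis) for each pair of a labelled Hira KO with a labelled WT library (x axis), by role, with all tested genes as crosses. The primary granule medians lie lowest in each pair, at -1.58, -0.81, -3.27 and -2.16, and the crosses lie at 0.00 to 0.01.

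Over all 38 genes the summed CPM were 5132, 3447, 2396 and 1552, in which Mpo alone gave 3062, 1936, 1101 and 463. The summed CPM of the secondary granule role (732, 611, 522 and 431) and of the monocyte role (536, 415, 344 and 284) fell in the same order of libraries. Those of the receptor and oxidase role did not (258, 212, 251 and 322). Of the 37 tested genes 17 followed the full order of libraries, against 9.45% of all tested genes. The groups did not overlap in 22 that were lower in labelled Hira KO (27.8% of all tested genes). They did not overlap in 2 that were higher (28.3% of all tested genes), and they overlapped in 13. Labelled WT 1 was above labelled WT 2 in 32 of the 37 and labelled Hira KO 1 above labelled Hira KO 2 in 25. The shares of all tested genes with these orders were not counted. The median log2 ratio of labelled WT 2 over labelled WT 1 was -0.41 in the 37 and -0.002 in all tested genes. That of labelled Hira KO 2 over labelled Hira KO 1 was -0.44 and -0.003.

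Calls depended on single libraries. Without labelled WT 1 or without labelled WT 2 none of the 38 genes was called by edgeR, and few of all genes were (3 and 1 higher, 1 and 1 lower). Without labelled Hira KO 1 the median log2 fold change of these genes was -1.16, and without labelled Hira KO 2 it was -0.54. Without the one and then the other, Csf3r was at 1.21 and 0.82 and Itgam at 1.69 and 0.76. Ly6c2 lost its call without any one library (edgeR adjusted p 0.0946 to 0.372), whereas Lcn2, Ifi30, Fcgr2b and Csf3r lost theirs without either labelled WT library. On log2(TPM + 1), limma called 11 of the 38 genes lower, Mpo, Elane, Prtn3, Ctsg and Ms4a3 among them. Of all genes it called 262 lower and 392 higher, and it did not call Csf3r (limma adjusted p = 0.228). TPM moves with the mitochondrial share of a library, which was higher in both replicates numbered 2 (51.7 and 53.1%, labelled WT first). Replicates numbered 1 had 40.8 and 42.9%, so both labels held a low and a high share. Whether this share had a part in the difference between the limma and edgeR calls was not tested.

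Several marker lists of other cells moved with these genes, some in the same and some in the opposite direction, and their part in the results was not tested. Calls in these lists are to be read against the 1.32% of all tested genes called higher and the 0.48% called lower. The 9 stem cell and LSK markers (Ly6a, Kit, Cd34, Flt3, Hlf, Mecom, Procr, Slamf1 and Meis1) summed to 668 and 813 CPM in labelled WT and to 1263 and 1589 CPM in labelled Hira KO. All 9 had a log2 fold change above 0 and 4 were called higher (Ly6a, Flt3, Hlf and Meis1). The 10 erythroid markers summed to 583 and 795 CPM against 379 and 81.6 CPM, with 6 of 10 below 0. In these sums Car1 alone gave 342 and 476 CPM against 262 and 41.8 CPM. The 11 mast cell, basophil and eosinophil markers summed to 122 and 71.6 CPM against 45.7 and 38.5 CPM, with 8 of 9 tested below 0. The 8 B cell markers summed to 320 and 260 CPM against 176 and 136 CPM, with 6 of 8 below 0 and Igll1 called lower. The 9 macrophage markers summed to 37.9 and 24.0 CPM against 19.95 and 19.2 CPM, with 5 of 7 tested below 0. The 9 stroma and endothelium markers summed to 107 and 93.8 CPM against 79.7 and 83.9 CPM, with 6 of 8 tested below 0 and Cdh5 and Stab2 called lower. The sum of the 6 plasma cell markers went the other way, from 97.2 and 64.9 CPM to 275 and 223 CPM. Jchain, called higher (log2 fold change 3.97), alone gave 13.1 and 7.17 CPM against 192 and 125 CPM, so this rise rested on it. Of the 6 markers 5 lay above 0, and Mzb1 lay below without overlap (-1.27). The 8 dendritic cell markers summed to 437 and 403 CPM against 470 and 508 CPM, although 5 of 7 tested lay below 0, and Flt3, also a progenitor gene, was called higher. The 10 T and NK cell markers summed to 88.0 and 80.4 CPM against 86.4 and 45.1 CPM, with 5 of 7 tested below 0 and Cd4 called higher. Most of these sums was Nkg7, at 74.3 and 67.9 CPM against 71.7 and 24.1 CPM. The 6 megakaryocyte markers summed to 41.9 and 18.4 CPM against 38.5 and 22.2 CPM, and the groups overlapped in all 6. None of these markers was at 0 in all 4 libraries, and Marco, a macrophage marker, was at 0 in 3.

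Other genes of the same pathways were counted beside the 38. Among 13 myeloid transcription factors, 10 were tested and none was called by edgeR, with 5 of them at an unadjusted p below 0.05 (3 higher, 2 lower, to be read against the 12.2% and 10.6% of all tested genes). Spi1, which encodes PU.1, stood at 35.7, 31.6, 34.1 and 27.8 CPM (log2 fold change -0.12, interval -0.56 to 0.33), and its groups overlapped. Cebpa, needed to enter the granulocyte and monocyte path, stood at 6.93, 2.63, 6.58 and 6.79 CPM (0.48), low in labelled WT 2 alone. Gfi1, a repressor needed by neutrophils, ranged from 4.93 to 6.995 CPM (0.17). Irf8, which favours the monocyte over the granulocyte path, stood at 57.4, 37.2, 31.1 and 25.7 CPM (-0.74, edgeR adjusted p = 0.136), in the same descending order as the primary granule genes. The list did not fall as a whole, with a median log2 fold change of 0.31 and 6 of the 10 tested above 0. In 4 of the 10 both labelled Hira KO libraries were higher (28.3% of all tested genes). These were Klf4 (3.66, interval -0.56 to 7.87), Cebpb (2.28), Irf4 (1.14) and Runx1 (0.45). In 2, Irf8 and Myb (-0.42), both were lower (27.8% of all tested genes). Cebpe, which drives secondary granule genes, was not tested, with 2.17 CPM in labelled WT 1 and at most 0.363 CPM in the other libraries. Of 16 further granule and lysosome genes 10 were tested and none was called, and neither was any of the 5 oxidase partners. Of 28 further myeloid receptor and adhesion genes 25 were tested and 1 was called lower (0.48% of all tested genes). Itgb2, the beta chain that pairs with CD11b, stood at 26.6, 29.2, 11.4 and 10.7 CPM and fell by 1.34 on the log2 scale (SE 0.20, edgeR adjusted p = 0.0347). Its partner Itgam had the opposite sign.

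The second comparison asked whether the chromatin near these genes was called open in the same libraries. The peak lists held 63422 to 92839 peaks, with labelled Hira KO 1 the longest and labelled WT 2 the shortest, and as they carry no read totals the depth behind a missing peak is unknown. RNA and ATAC libraries of the same number are not said to share cells. Within 10 kb of the gene body 37 of the 38 genes had at least 1 peak region (96.0% of tested genes with a position), the exception being Ly6g. A region called in all 4 libraries was near 31 of the 38, against 90.6% of tested genes. The 7 without one were Mpo, Camp, Cd177, S100a9, Ly6g, Itgam and Cybb. A region called only in the labelled WT pair was near 3 genes, Lcn2, Fcnb and Fcgr3 (17.0% of tested genes had one), and one found in the labelled Hira KO pair alone was near 14 (22.5% of tested genes). By role these 14 were 2 of 5 primary granule (Mpo and Ms4a3), 4 of 15 secondary granule and late neutrophil, 3 of 10 monocyte and 5 of 8 receptor and oxidase genes. Of 219 distinct regions 9 lay near more than 1 of the genes, as at Prtn3 and Elane.

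Promoters of these genes were called open less uniformly than those of tested genes at large, and labelled Hira KO 1 stood apart. A peak over the promoter window (250 bases before to 50 after the start) was called in 17, 12, 28 and 16 of the 33 promoters, or 51.5, 36.4, 84.9 and 48.5%. For tested genes at large these shares were 84.5, 80.7, 87.4 and 83.5%. Thus labelled Hira KO 1 was near the general share and the other 3 libraries far below it. All 4 libraries had a peak at 11 of the 33 promoters, against 79.8% of tested genes. These were Mmp8, S100a8, Anxa1, Ly6c2, Cx3cr1, Lyz2, Ifi30, Clec12a, Plac8, Fcer1g and Ncf1, of which 6 are monocyte genes and none a primary granule gene. At 7 promoters, those of Elane, Prtn3, Ms4a3, Lcn2, Ngp, S100a9 and Fcnb, labelled Hira KO 1 alone had a peak, a pattern held by 2.27% of tested genes. Neither differences between libraries nor those between roles can be tested from peak lists without counts.

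The roles differed in which libraries had a promoter peak. All 5 primary granule promoters had one in labelled Hira KO 1 and none in labelled Hira KO 2, with 2 and 1 in the labelled WT libraries. At the Ctsg promoter the fold enrichment over background, as the authors' caller gave it, was 4.23, 3.94 and 10.3 in labelled WT 1, labelled WT 2 and labelled Hira KO 1, and at the Mpo promoter it was 5.003 in labelled WT 1 and 6.53 in labelled Hira KO 1. Elane had 7.93 and Prtn3 2.80 in labelled Hira KO 1 alone. Of 13 secondary granule and late neutrophil promoters 5, 3, 9 and 3 had a peak, in the order of libraries used above. Of 8 monocyte promoters 6, 6, 7 and 7 had one. The 7 receptor and oxidase promoters had 4, 2, 7 and 6. Of the 8 monocyte promoters 6 had a peak in all 4 libraries, while that of Ccr2 had one in 2 libraries and that of F13a1 in none. Of the 5 primary granule promoters those of Elane, Prtn3 and Ms4a3 had a peak in 1 library, that of Mpo in 2 and that of Ctsg in 3.

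**Figure D4:**
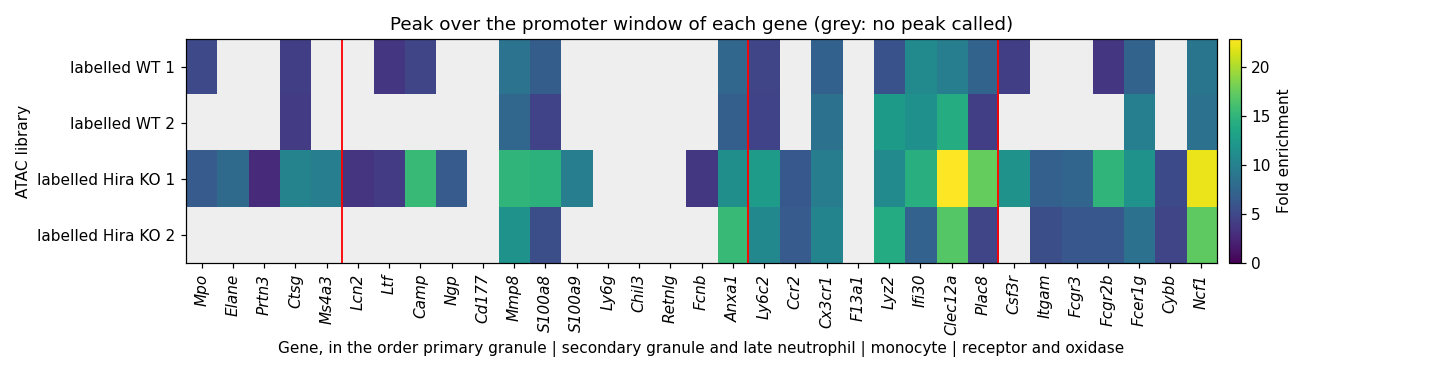
Fold enrichment (colour) of the strongest peak over the promoter window of each of 33 genes (columns, by role, red lines between roles) in each ATAC library (rows); grey means no peak was called. The labelled Hira KO 1 row is filled at 28 of 33 genes, against 17, 12 and 16 in the other rows.

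At 4 promoters, those of Itgam, Cybb, Fcgr3 and Ccr2, both labelled Hira KO libraries and neither labelled WT library had a peak (1.03% of tested genes), and the reverse pattern occurred at none. Itgam had 3 regions of this kind, of which that at its start (chr7:128062472-128062780) had fold enrichments of 6.99 and 5.49 and another inside the gene (chr7:128065595-128065943) 7.46 and 4.46. Its RNA was also higher in both labelled Hira KO libraries. Cybb, on the X chromosome, had 4 such regions inside the gene, including its start (chrX:9469164-9469453, 5.13 and 4.80), while its RNA was lower in both labelled Hira KO libraries. At Csf3r 1 region of this kind lay inside the gene (chr4:126030739-126031049, 5.36 and 5.49). The strongest region near Csf3r, chr4:126046648-126047639 beyond the gene body, was called in all 4 at 61.4, 58.4, 60.4 and 69.3.

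The genes whose RNA fell did not share a pattern of peaks. Lcn2 had a region called only in the labelled WT pair upstream of its start (chr2:32393939-32394194, 3.46 and 3.94), between stronger regions called in all 4 libraries at chr2:32381353-32382393 (47.3, 38.1, 54.5 and 43.2) and chr2:32394939-32396861 (23.9, 17.1, 24.2 and 27.1). The Ly6c2 promoter was called in all 4 libraries, at 4.81, 4.60, 12.6 and 10.6, with higher fold enrichment in labelled Hira KO while its RNA was lower. Ifi30 had 15 regions within 10 kb, the most of the 38 genes, 10 of them called in all 4, with promoter values of 11.0, 11.5, 14.5 and 7.21. The Fcgr2b promoter was called in 3 libraries, at 3.66 in labelled WT 1, 14.9 in labelled Hira KO 1 and 6.18 in labelled Hira KO 2. At the other end, no library had a promoter peak at Cd177, Ly6g, Chil3, Retnlg or F13a1, although Chil3 and Retnlg had TPM means of 23.7 and 33.5. The positions of these regions are those of GRCm38, and fold enrichments are the authors' own and are given without a test between lists.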

How the data were processed

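The members and role lists were chosen with earlier results of these data known, so lists are described by counts and medians, with no list test. Per the file headers, the authors deposited RSEM's expected counts and TPM for each gene. Peaks came as one list per library, deposited by the authors with a fold enrichment (a ratio to background), a −log10 p-value and a −log10 q-value per peak. Per the submitters' processing notes the tools were STAR 2.5.3a, RSEM 1.3.0, MACS2 2.1.1, Bowtie2 2.2.9, Trim Galore 0.4.5, HTSeq, bedtools and DESeq2 and the build GRCm38. No source used here states strand, so reads of a gene and of its antisense partner cannot be separated.

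The rounded counts went into edgeR 4.0.16 (R 4.3.3, TMM, filterByExpr, robust quasi-likelihood F test, genotype alone, Benjamini-Hochberg over 16258 genes, called below 0.05). The biological coefficient of variation was 27.8%. CPM are counts over the TMM-scaled library size and compare libraries; TPM compare genes. Identifiers matched a symbol for 45143 of 45706 genes. Peaks sharing an interval were counted once, the mitochondrial interval was left out, and peaks overlapping by at least 1 bp were merged. Gene bodies and promoters came from RefSeq GRCm38.p6 tables. Values per library are given for every called gene, the 3 highest by TPM per role, and Csf1r, Ly6g, Itgam and Ly6c2. One stem cell marker of the planned list is not reported here. The library values of Fcnb and Ccr2 were chosen after their values were seen. Both steps were tested on simulated data. DESeq2 1.42.0 and limma 3.58.1, other filters, scalings, distances and overlaps, and leaving out each library were the alternatives. Depth limits genes of low count such as Cd14 and Ly6g.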

Additional observations from a re-analysis of the deposited data

How the results depend on the processing

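Scaling by RLE factors or without mitochondrially encoded genes left 1 of the 38 genes called higher and 4 lower, and a mean of at least 50 counts left 1 and 3, without Ly6c2 (adjusted p = 0.0503). DESeq2 called 2 higher and 10 lower (776 and 505 of all genes), no low-count filter 2 and 10 (1206 and 1017), limma on log2(TPM + 1) 0 and 11 (392 and 262) and on log2(TPM + 0.1) 0 and 9 (376 and 246). With 1 library left out edgeR called 0 to 2 of the 38 higher and 0 to 18 lower (all genes: 1 to 1657 and 1 to 1888), with the lone library assumed to vary like the other group. The medians then ran from -1.16 to -0.46 (all 38), -2.84 to -1.22 (primary granule), -1.23 to -0.53 (secondary granule and late neutrophil), -0.86 to -0.39 (monocyte) and -0.32 to 0.17 (receptor and oxidase). The cause was not tested.

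The replicate block, with the number in the titles as a term, called 1 of the 38 higher and 11 lower (368 and 169 of all genes), adding Mpo, Elane, Prtn3, Ctsg, Ltf, Mmp8 and F13a1. Deviations of libraries that share a number correlated at 0.06 over all tested genes and 0.48 over 37 of the 38. With 2 pairs and no label that ties the numbers, the samples share only a number.

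Signs changed for genes whose intervals include 0. With a mean of at least 50 counts the log2 fold change was 0.0128 for S100a8, 0.0273 for Anxa1 and 0.0262 for Ncf1. Anxa1 was at 0.26 and 0.27 and Ccr2 at -0.14 and -0.18 on the 2 TPM scales. With the replicate block Ccr2 was at -0.10 and Ncf1 at 0.0141. With 1 library left out the values ran from -0.28 to 0.25 (S100a8), -0.11 to 0.066 (Anxa1), -0.30 to 0.30 (Ncf1), -1.32 to 0.94 (Ccr2), -0.72 to 0.27 (Clec12a), -0.44 to 0.0409 (Fcer1g), -0.0139 to 0.52 (Ncf4), -1.06 to 0.11 (Chil3), -0.20 to 0.75 (Retnlg), -5e-04 to 0.93 (Csf1r) and -0.96 to 0.29 (Fcgr3).

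Genes with a region called in every library numbered 21 within 2 kb, 37 within 50 kb, 29 for peaks with a −log10 q of at least 5 and 31 to 32 with 1 library left out. Those with a region only in the labelled WT pair numbered 0, 9 and 1 in the same settings. With 1 library left out, those with a region only in the remaining labelled WT libraries numbered 3 to 9. Fewer libraries loosen the definition, since 1 library can stand for a group, so these ranges are not of the same measure. Those with a region only in the labelled Hira KO pair numbered 8, 23 and 12. With 1 library left out, those with a region only in the remaining labelled Hira KO libraries numbered 14 to 30. Asking for an overlap of at least 0.5 of the smaller peak changed none of these 3 counts.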
